A study of Poecilia mexicana x Poecilia latipinna and Poecilia formosa with 28 samples.

Results

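Liver and ovary of the same fish were compared in 8 females, 4 of the clonal Amazon molly Poecilia formosa (fish 3, 4, 11 and 12) and 4 F1 hybrids (fish 4, 10, 12 and 13). They are all fish of the study with a library of both organs, and they give 16 of its 28 RNA-seq libraries; the others are brain libraries and the livers of hybrids 11 and 14. The P. formosa females belong to 1 clone that has been bred in aquaria for many generations. The F1 hybrids come from 1 brood of a P. mexicana female mated with a P. latipinna male. Fish of both genotypes were untreated females aged 3 months, matched for size and raised alike, per the labels. Each organ difference is the liver value minus the ovary value of the same fish, first over both genotypes, then in P. formosa and in the F1 hybrid apart, and last between the genotypes.

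The Amazon molly is an all-female species that arose by hybridisation of P. mexicana and P. latipinna and passes on its genome without recombination, using sperm only to start development. The liver of a mature female fish makes most proteins of the blood plasma and the yolk precursors that the ovary takes up. The ovary holds oocytes, which store maternal RNA for the embryo, and the follicle cells that surround them. The comparison asks which organ differences the established clone and a first-generation hybrid of the same cross have in common.

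The 8 liver libraries held 41789853 to 46316691 counts and the 8 ovary libraries 41249726 to 45987727, so library totals were alike in both organs. The factors of TMM scaling were 1.98 to 2.13 in ovary and 0.402 to 0.600 in liver, so most genes were sampled less deeply in liver. The count table gives 31997 genes by numeric ID and the files do not pair IDs with names, so the named lists of liver, oocyte, meiosis and follicle genes could not be run, and the organs could not be checked against markers. Genes are therefore described by the size of their difference, by their level, by their level in brain and by the share of a library they take up, and 8 of them by ID. The siblings share 1 clone or 1 brood, so every p-value here measures only the spread among such siblings. In whole organs, fewer cells of a type and less RNA per cell cannot be told apart. Whether reads were counted by strand is not stated in the labels, which leaves genes that overlap on opposite strands uncertain, and alleles of clone and hybrids may match the reference unequally well.

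Most genes differed between the organs. Of 23022 genes tested, 7568 were higher in liver and 10622 were higher in ovary over both genotypes, at an adjusted p under 0.05 in edgeR's quasi-likelihood test with fish as block. These are 32.9% and 46.1% of the genes tested, 79% together. The ovary list also held more differences over 16-fold and had the larger median, while the steepest single genes described below were liver genes. Fitted sizes of genes with no count in an organ depend on the prior count. Differences over 16-fold were called for 1583 genes in liver and 3647 in ovary, and the median size of a called difference was 2.22 on the log2 scale for liver and 2.81 for ovary. Of the 18190 called genes, 84.7% had the same sign in all 8 fish. They were called on these same differences, so the choice itself favours a common sign. A 95% interval of the organ difference that lay within 2-fold in either direction was found for 2919 genes, 12.7% of those tested.

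The liver libraries were dominated by few genes. The 10 most counted genes took up 30.4% ± 1.65 of the counts in P. formosa liver and 32.6% ± 6.0 in F1 hybrid liver (SD, n = 4 each), against 3.43% ± 0.218 and 3.11% ± 0.110 in the ovaries. In ovary, 18334 ± 176 genes reached 1 CPM (the count scaled to a common library total) in P. formosa and 18275 ± 205 in the F1 hybrid. In liver the numbers were 14128 ± 506 and 12534 ± 346, so the liver libraries reached fewer genes in both genotypes. The lowest P. formosa liver (13609 genes) lay above the highest F1 hybrid liver (12903). This CPM is not corrected for the TMM factors, which averaged 0.543 in P. formosa liver and 0.444 in F1 hybrid liver. The split between the organs depends on scaling. With TMM scaling 41.6% of called genes were higher in liver, and with library totals alone 13.7% were. Library totals moved the median difference of all genes from -0.47 to -2.52 on the log2 scale.

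**Figure D1:**
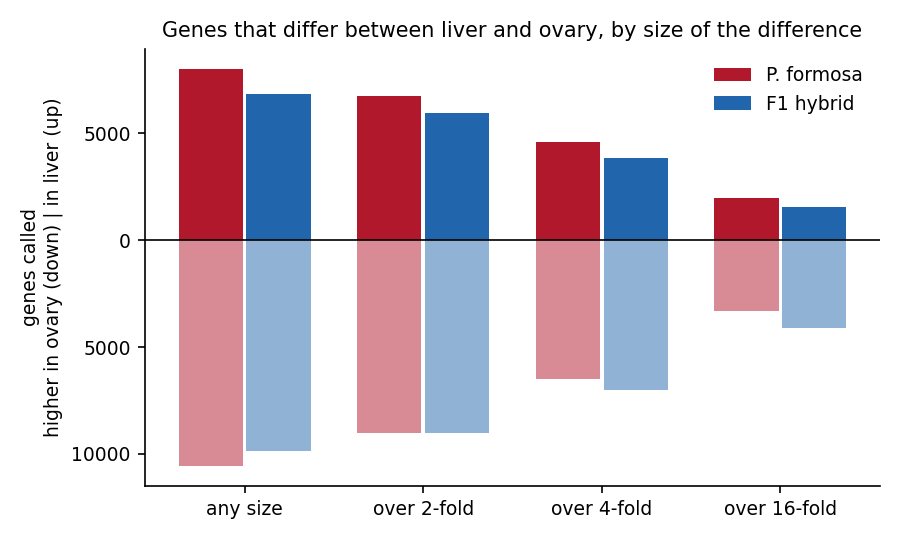
Numbers of genes called higher in liver (bars up) and higher in ovary (bars down) in P. formosa and in the F1 hybrid, by the least size of the difference; calls are adjusted p under 0.05 with fish as block. At over 16-fold the ovary bars hold 3296 genes in P. formosa and 4128 in the F1 hybrid, and the liver bars 1972 and 1526.

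In each genotype alone the same picture was found. P. formosa had 7991 genes higher in liver and 10553 higher in ovary, which is 80.5% of the genes tested. The F1 hybrid had 6838 and 9838, or 72.4%. The genotypes differed in the far ends. The F1 hybrid had more ovary genes over 16-fold (4128 against 3296) and P. formosa more liver genes over 16-fold (1972 against 1526); these counts come from separate fits and were not tested against each other. Gene by gene within each fish, the 5th percentile of the log2 difference was -5.30 ± 0.55 in P. formosa and -6.32 ± 0.17 in the F1 hybrid (SD, n = 4 each). The 4 P. formosa fish ranged from -6.00 to -4.73 and the 4 F1 hybrids from -6.42 to -6.06, without overlap. P. formosa 4 and 12 were least negative, at -4.73 and -5.03. P. formosa 3, at -6.00, lay close to F1 hybrid 13, at -6.06. The 95th percentile was 4.77 ± 0.17 and 4.58 ± 0.21, and there the fish overlapped.

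The most abundant shared liver genes show how steep the organ difference was. Like the leading ovary genes below, they were chosen as called the same way and at least 4-fold in each genotype. That choice favours organs that lie apart and a low adjusted p. Levels of single genes are given as scaled CPM, the CPM of the TMM-scaled library total, and are not corrected for gene length. Gene 103154618 stood at 137810, 131305, 98801 and 114693 scaled CPM in the livers of P. formosa 3, 4, 11 and 12, and at 4.88, 8.14, 5.29 and 4.90 in their ovaries. In F1 hybrids 4, 10, 12 and 13 it stood at 203399, 186695, 103190 and 210808 in liver and at 6.02, 3.51, 13.9 and 8.13 in ovary. Every liver lay far above every ovary in both genotypes. Its log2 difference over both genotypes was 14.47 (SE 0.49, adjusted p = 3.92e-09, edgeR), higher in liver in 8 of 8 fish. Between genotypes its organ difference had an interval of -1.54 to 1.08 on the log2 scale, which does not reach a call (adjusted p = 0.812) and is too wide to be called within 2-fold.

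Gene 103143053 was of the same kind. Its liver levels were 102606, 131425, 122182 and 180624 scaled CPM in P. formosa and 85325, 85994, 57423 and 161273 in the F1 hybrid. Its ovary levels were 5.77, 9.12, 6.41 and 4.27 in P. formosa and 5.54, 2.96, 12.7 and 13.0 in the F1 hybrid. The organs did not overlap, and the log2 difference was 14.01 (SE 0.53, adjusted p = 6.29e-09, edgeR). The 10 liver genes taken by the naming rule, all chosen for being at least 4-fold higher in liver in each genotype and either most abundant or most different, together held 27.0% ± 1.04 of P. formosa liver counts and 27.2% ± 2.56 of F1 hybrid liver counts. In ovary they held 0.00748% ± 0.00174 and 0.0117% ± 0.00642.

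One of those 10, the liver gene ranked 4 by level, varied widely among siblings and was singled out after its values were seen. In the livers of P. formosa 3, 4, 11 and 12 it stood at 436.9, 984.8, 629.8 and 4.22 scaled CPM, and in the livers of F1 hybrids 4, 10, 12 and 13 at 1331, 1605, 492985 and 3584. In liver of F1 hybrid 12 this gene alone made up 19.8% of all counts, the largest share of any gene in the 16 libraries. The ovaries of F1 hybrids 12 and 13 also held more of it, 17.2 and 12.4 scaled CPM, than the other 6 ovaries, at 0.453 to 1.11. F1 hybrids 12 and 13 carry library numbers of a later series than the other fish. Fish and series cannot be told apart here.

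The leading ovary genes were less extreme and less even across livers. Gene 103132983 stood at 2260, 1965, 1957 and 2003 scaled CPM in the ovaries of P. formosa and at 2616, 3023, 1674 and 2110 in those of the F1 hybrid. Its liver levels were 11.1, 67.1, 20.3 and 47.7 in P. formosa and 19.6, 33.4, 6.89 and 15.6 in the F1 hybrid. Every ovary lay above every liver, and the livers of the genotypes overlapped. The log2 difference was -6.65 (SE 0.42, adjusted p = 2.40e-07, edgeR).

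Gene 103148297 stood at 2605, 2082, 2066 and 2215 scaled CPM in P. formosa ovary and at 1867, 1784, 1218 and 1590 in F1 hybrid ovary. In liver it stood at 3.82, 59.5, 8.66 and 32.2 in P. formosa and at 3.27, 2.07, 0.0560 and 5.90 in the F1 hybrid. Ovary levels were close among siblings, while the liver level of P. formosa 4 and 12 was several times that of 3 and 11. The log2 difference was -8.43 (SE 0.92, adjusted p = 1.15e-05, edgeR), and the difference between genotypes was 2.54 with an interval of -0.09 to 5.17 (adjusted p = 0.143).

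Most of the other abundant ovary genes followed the same fish. For the 11 ovary genes taken by the naming rule, the level in a fish's liver was set against the level in its own ovary, both in plain CPM. The median over the genes was 0.0427%, 0.710%, 0.146% and 0.469% in P. formosa 3, 4, 11 and 12. It was 0.0458%, 0.0279%, 0.00329% and 0.0857% in F1 hybrids 4, 10, 12 and 13. For 10 of the 11 genes P. formosa 4 and 12 both lay above the other 6 fish; the exception had its highest value in P. formosa 12, at 2.55%, and 1.59% and 1.70% in P. formosa 4 and 11. The reverse reading, of the 10 liver genes in ovary, gave medians from 0.0130% to 0.0952% in the 8 fish. What raised the ovary genes in the livers of P. formosa 4 and 12 was not tested, and several counts below are given with and without these fish.

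**Figure D2:**
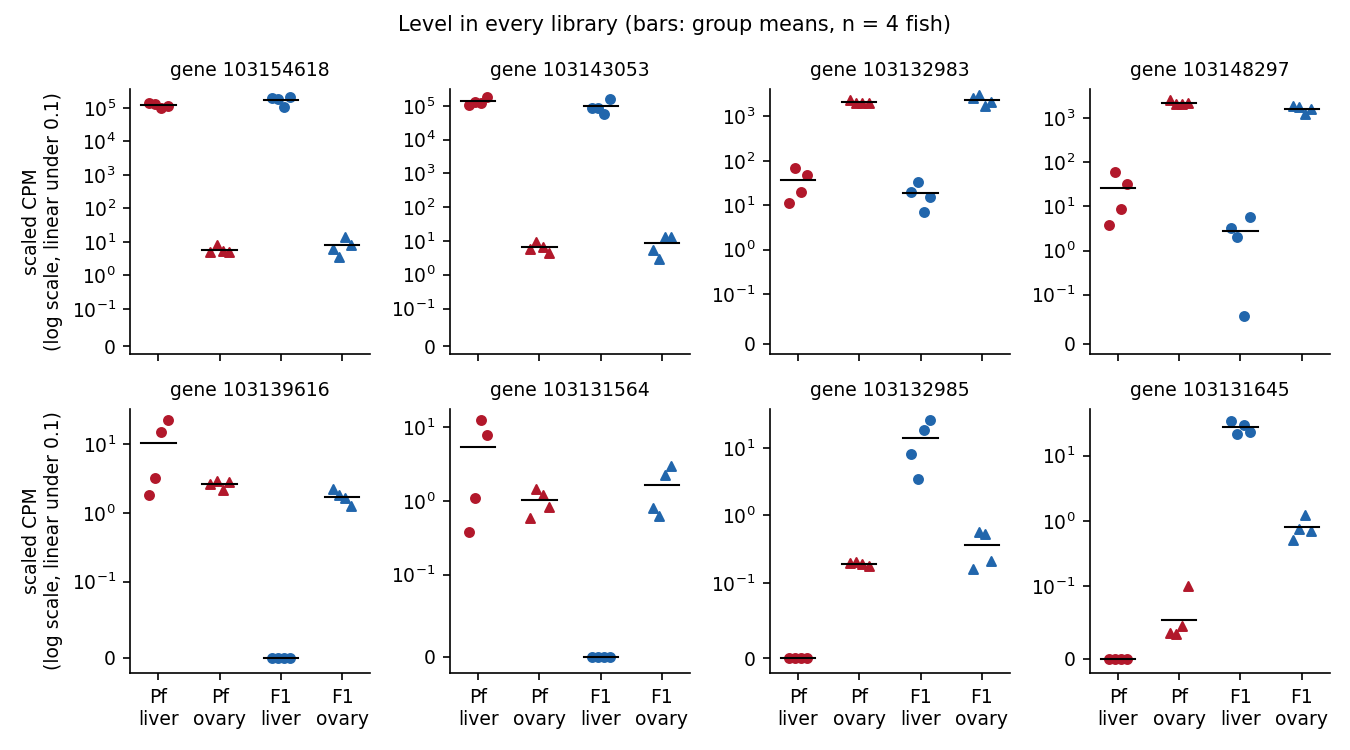
Scaled CPM of 8 genes in every library (log axis, linear under 0.1), for liver (circles) and ovary (triangles) of P. formosa (Pf, red) and the F1 hybrid (F1, blue), with bars for group means of 4 fish. The upper row holds genes with an organ difference of the same direction in both genotypes, and the lower row genes whose liver level is at 0 in 1 genotype.

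The organ differences of the genotypes were mostly alike in direction. Of the genes tested, 14175 were called the same way in P. formosa alone and in the F1 hybrid alone, which is 61.6%. They make up 76.4% of the P. formosa calls and 85.0% of the F1 hybrid calls, and 96.9% of the 14626 genes called in both. Of these, 5881 were higher in liver (73.6% of the P. formosa liver list and 86.0% of the F1 hybrid liver list) and 8294 were higher in ovary (78.6% and 84.3%), which is 25.5% and 36% of the genes tested. At least 4-fold in each genotype were 3159 liver genes and 5346 ovary genes. Library totals in place of TMM scaling shift every gene towards ovary, so ovary calls are kept by construction; of the 5881 shared liver genes 1958 then kept their call and 985 were called higher in ovary.

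Across genes, the log2 differences of the genotypes had a Pearson correlation of 0.88 and a Spearman correlation of 0.87 over 23022 genes. Genes are not independent replicates, and every gene of a genotype shares the same 8 libraries. Fish of the same genotype were closer to each other: the correlation of fish-wise differences had a median of 0.945 between P. formosa fish, 0.933 between F1 hybrids and 0.859 between fish of different genotypes. The first principal component of the fish-wise differences held 52.9% of their variance and put all 4 P. formosa fish on 1 side and all 4 F1 hybrids on the other.

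**Figure D3:**
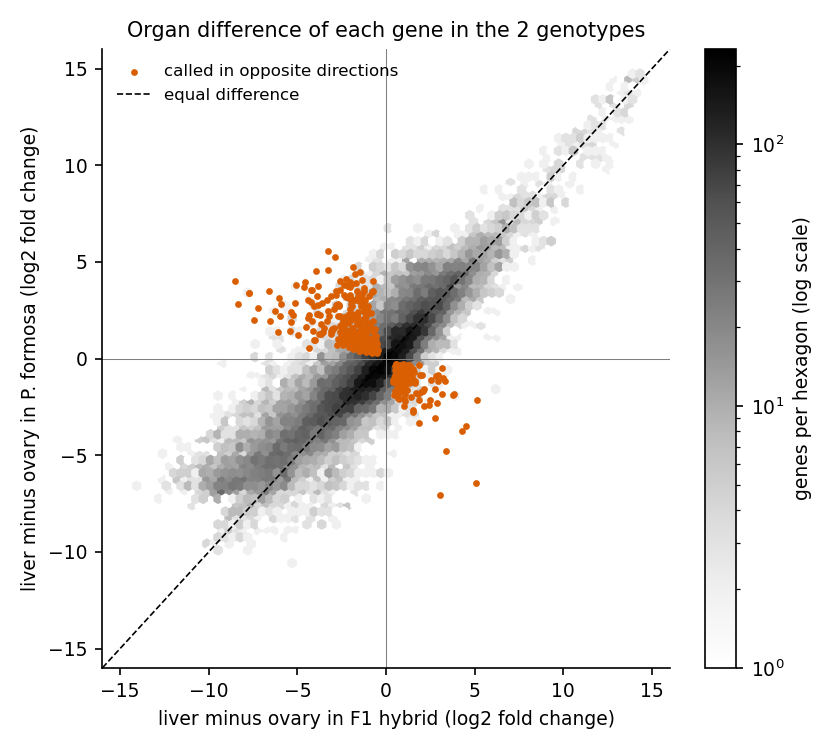
Log2 fold change of liver against ovary for each of 23022 genes in the F1 hybrid (x axis) and in P. formosa (y axis), shaded by the number of genes per hexagon, with a dashed line at equal difference. Most genes lie along the line (Pearson correlation 0.88), and the 259 and 192 genes called in opposite directions are drawn in orange.

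Same direction is not same size. The test of the difference between the genotypes, organ by genotype in 1 fit of all 16 libraries, split the 14175 shared genes into 3 kinds. For 2711 (19.1%) the size of the organ difference was called different, against 24.7% of all genes tested. For 2793 (19.7%) the 95% interval of that difference lay within 2-fold, against 16.6% of all genes tested. The 2 kinds overlap in 12 liver genes and 16 ovary genes, which were called different by less than 2-fold. For the remaining 8699 (61.4%) the data showed neither a difference nor a likeness within 2-fold.

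Of the 8294 shared ovary genes, 1043 were called with a smaller organ difference in P. formosa and 469 with a larger one. Of the 5881 shared liver genes, 663 were smaller and 536 larger. Smaller is more positive for ovary genes and more negative for liver genes. Over all genes tested, 13.9% were called more positive and 10.8% more negative in P. formosa. The 1043 are not a larger share of the shared ovary genes than 13.9%. These 1706 smaller and 1005 larger differences were 360 and 300 without P. formosa 4 and 12, with fewer fish in the test. The count of smaller differences was 953 without P. formosa 11 and 886 without P. formosa 12. The count of larger differences was 582 without P. formosa 11, 583 without P. formosa 12, 662 without F1 hybrid 4 and 597 without F1 hybrid 13. Without the fish block 2635 were smaller in P. formosa.

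Over all genes tested, the organ difference itself was called different between the genotypes for 5679 genes, which is 24.7%. For 3190 (13.9%) liver minus ovary was more positive in P. formosa, and for 2489 (10.8%) it was more negative. With library totals in place of TMM scaling these were 3926 and 1444, and the median of all genes moved from 0.19 to 0.45 on the log2 scale. The more positive genes had the larger sizes, with a median of 2.25 on the log2 scale against 1.26, and 1824 against 505 of them differed over 4-fold. In both directions the genotypes parted in liver more than in ovary. The liver differed more between the genotypes than the ovary did in 86.2% of the more positive and 85.6% of the more negative genes. This held for 70.8% of all genes tested and 65.8% of those not called. These shares compare absolute differences of group means, which spread among fish and low counts also enlarge. Most genes were sampled less deeply in liver, and whether the liver diverged more in general was not tested. The median difference between P. formosa and the F1 hybrid in the more positive genes was 1.81 in liver and -0.19 in ovary, on the log2 scale. In the more negative genes it was -1.08 in liver and 0.07 in ovary. The choice of genes by this test fixes the sign of the liver value minus the ovary value, but not how it splits between the organs.

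The 4 fish-wise differences of P. formosa lay apart from those of the 4 F1 hybrids for 32.4% of all genes tested. The called genes were chosen on these same differences, so their own share is not given. The counts lean on single fish, most on P. formosa 11 and 12. Of the 5679 calls, 2245 were lost without P. formosa 11 and 2250 without P. formosa 12. Without P. formosa 4 the loss was 1232, and without F1 hybrid 13 it was 1575. Without P. formosa 11 the counts were 1973 more positive and 1491 more negative, without P. formosa 12 they were 1891 and 1567, and without P. formosa 4 and 12 they were 1174 and 695. Of the 5679 genes, 1846 kept their call without those 2 fish. F1 hybrids 12 and 13 carry library numbers of a later series than the other 6 fish. Within the first series 2470 genes were more positive and 2255 more negative, and 3665 of the 5679 kept their call. The later series holds F1 hybrids only and gives no comparison of the genotypes.

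Opposite organ differences were few. Only 1.96% of the genes tested were called higher in liver in 1 genotype and higher in ovary in the other. They are 3.08% of the genes called in both genotypes. All were also called in the test between genotypes, which opposite calls in the same libraries nearly require. For 259 of them liver was the higher organ in P. formosa, with median differences of 1.63 in P. formosa and -1.95 in the F1 hybrid on the log2 scale. Their median level was 6.57 scaled CPM in P. formosa liver and 0.923 in F1 hybrid liver, against 1.80 and 3.90 in the ovaries. For the other 192 ovary was the higher organ in P. formosa, with median differences of -0.88 and 0.93. Differences of at least 2-fold in each genotype remained for 225 genes and of at least 4-fold for 80. With library totals alone the 192 became 58, and they became 126 without P. formosa 11 and 125 without P. formosa 12.

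Genes with a large difference between the genotypes were taken by fitted size from the genes called in the test between genotypes. Their fish-wise differences had to lie apart between the genotypes, with a mean of at least 5 scaled CPM in a group. A low adjusted p is therefore set by the choice, which also favours livers that lie apart where the ovaries are alike. The first 2 in each direction had no count in the liver of 1 genotype. Their rank rests on fitted values that depend on the prior count. Gene 103139616 had no count in any F1 hybrid liver. It stood at 1.82, 3.22, 15.3 and 22.4 scaled CPM in the livers of P. formosa 3, 4, 11 and 12. In ovary it stood at 2.64, 2.90, 2.19 and 2.88 in P. formosa and at 2.21, 1.81, 1.66 and 1.28 in F1 hybrids 4, 10, 12 and 13. The ovaries of the genotypes were near each other, the livers did not overlap, and P. formosa 11 and 12 were highest. In brain, on a scale set over all 3 organs, its mean was 60.0 scaled CPM in P. formosa and 18.7 in the F1 hybrid. Set against 3 counts over the F1 hybrid livers, the liver-to-ovary ratio of pooled counts was at least 190.2-fold higher in P. formosa (adjusted p = 0.00856, edgeR). Without F1 hybrid 4 it was at least 122.9-fold higher. The pooled bound leans on P. formosa 11 and 12, with log2 differences of 2.78 and 2.94. P. formosa 3 and 4 had -0.52 and 0.15, and the F1 hybrids -5.94 to -5.17.

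Gene 103131564 also had no count in the 4 F1 hybrid livers and stood at 0.382, 1.11, 12.3 and 7.70 scaled CPM in those of P. formosa. Its ovary levels were 0.593, 1.46, 1.20 and 0.824 in P. formosa and 0.797, 0.627, 2.22 and 3.00 in the F1 hybrid, which overlap. Its mean in brain, on the same scale over all organs, was 166.1 scaled CPM in P. formosa and 194.2 in the F1 hybrid. The pooled ratio was at least 237.5-fold higher in P. formosa (adjusted p = 0.0148, edgeR), at least 139.3-fold without P. formosa 11 and at least 134.7-fold without F1 hybrid 13. It also leans on P. formosa 11 and 12, with log2 differences of 3.32 and 3.17 against -0.59 and -0.39 in P. formosa 3 and 4. The call of gene 103131564 was lost within the first library series (adjusted p = 0.0811) and without P. formosa 4 and 12 (adjusted p = 0.0542).

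In the other direction, gene 103132985 had no count in any P. formosa liver. It stood at 8.20, 3.41, 18.1 and 25.4 scaled CPM in the livers of F1 hybrids 4, 10, 12 and 13. Its ovary levels were 0.181 to 0.202 in P. formosa and 0.164 to 0.560 in the F1 hybrid, so the ovaries overlapped and the livers did not. The ratio of liver to ovary was at least 215-fold lower in P. formosa (adjusted p = 0.00572, edgeR), at least 137-fold without F1 hybrid 13 and at least 329-fold without F1 hybrid 10. Gene 103131645 was likewise without a count in P. formosa liver and stood at 34.5, 21.6, 29.6 and 23.0 scaled CPM in F1 hybrid liver. It was also lower in P. formosa ovary, at 0.0349, 0.0337, 0.0448 and 0.102 against 0.513, 0.750, 1.22 and 0.708, and the ratio was at least 57.5-fold lower in P. formosa (adjusted p = 0.00168, edgeR), or at least 30.4-fold without P. formosa 12. All 4 genes were counted in every ovary of both genotypes, gene 103131645 in P. formosa with 3 to 9 counts per library. Mean brain levels in P. formosa and the F1 hybrid were 0.328 and 0.588 scaled CPM for gene 103132985. For gene 103131645 they were 0.142 and 5.78.

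The next question was how genes with a strong organ difference in 1 genotype behave in the other, which did not choose them. Ovary genes over 16-fold in the F1 hybrid numbered 4128, and 92.0% of them were called higher in ovary in P. formosa, against a background of 45.8%. Liver genes over 16-fold in the F1 hybrid numbered 1526, and 97.5% were called higher in liver in P. formosa, against 34.7%. Chosen in P. formosa and read in the F1 hybrid, 92.2% of 3296 ovary genes and 88.1% of 1972 liver genes kept their organ, against backgrounds of 42.7% and 29.7%. Sizes shrink where a class is read outside the fish that chose it, so the 2 readings are given side by side.

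The ovary class behaved unequally. Chosen in the F1 hybrid, its median difference was -6.44 there and -4.85 in P. formosa on the log2 scale. Chosen in P. formosa, it was -5.67 there and -6.49 in the F1 hybrid, where it did not shrink. These medians rest in part on genes with no count in liver, whose fitted values depend on the prior count. With zeros set to 3 counts over the 4 livers, the medians were -5.19 and -4.37 for the first class and -5.00 and -5.23 for the second. In the test between genotypes, 775 of the 4128 had a smaller difference in P. formosa and 1 a larger one, and of the 3296 242 were smaller and 76 larger. The choice itself favours a larger difference in the genotype that chose the class, which the 775 and the 76 follow and the 1 and the 242 do not. A smaller ovary difference is a more positive one, called in 13.9% of all genes tested, and a larger one was called in 10.8%. The 775 are a larger share of their class than 13.9%. The 242 are a smaller share of theirs, so they are no excess. The liver class over 16-fold shrank in both readings, from 5.84 to 5.59 when chosen in the F1 hybrid and from 5.26 to 4.84 when chosen in P. formosa. With classes over 4-fold it did not when chosen in the F1 hybrid (3.52 there and 3.65 in P. formosa), and did when chosen in P. formosa (3.68 there and 2.95 in the F1 hybrid).

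A class chosen in 1 genotype was chosen in part for a low level in its livers, so only its level in the livers of the other genotype is free of the choice, and the livers of the genotypes are not compared within a class. The ovary class chosen in the F1 hybrid took up 24.9% ± 0.688 of the counts in P. formosa ovary (SD, n = 4). In the livers of P. formosa 3, 4, 11 and 12 it took up 0.176%, 0.295%, 0.375% and 0.387%, lowest in fish 3. The ovary class chosen in P. formosa took up 20.7% ± 1.48 of the counts in F1 hybrid ovary. In the livers of F1 hybrids 4, 10, 12 and 13 it took up 0.0763%, 0.0745%, 0.0947% and 0.0762%, closer together than the P. formosa livers in the reverse reading. In the livers of P. formosa 3, 4, 11 and 12, chosen to be low for it, this class took up 0.0692%, 0.196%, 0.117% and 0.177%, with fish 4 and 12 highest. Without P. formosa 4 and 12 the median of the class chosen in the F1 hybrid moved from -4.85 to -5.40 in P. formosa.

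**Figure D4:**
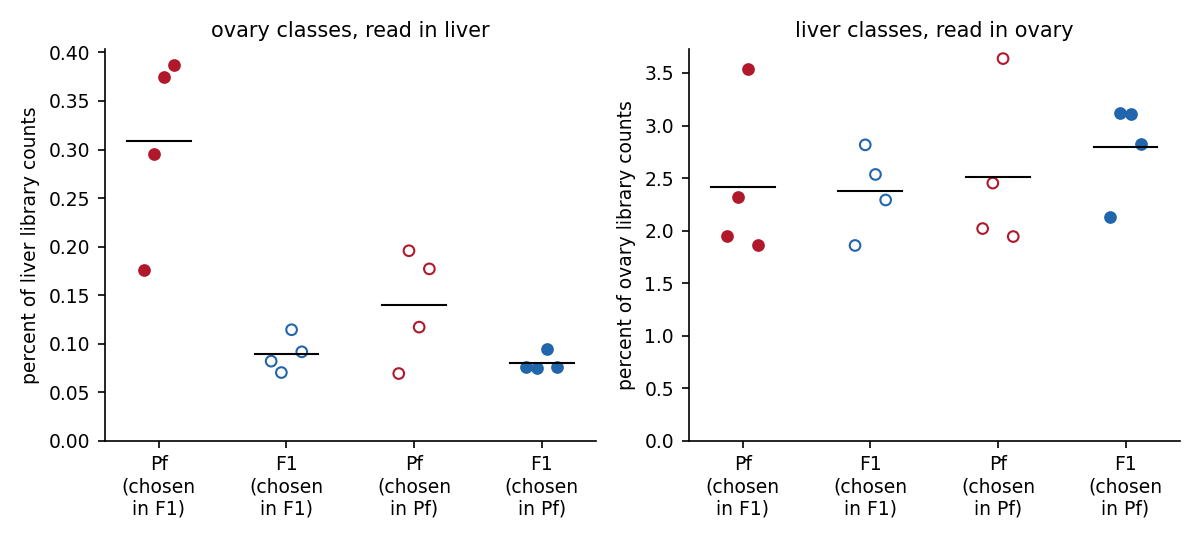
Share of library counts, in percent, of ovary classes read in liver (left) and of liver classes read in ovary (right), for each fish of P. formosa (Pf, red) and the F1 hybrid (F1, blue), with bars for means of 4 fish; open points show the genotype that chose the class and are low by that choice. The ovary class chosen in the F1 hybrid lies at 0.176% to 0.387% in P. formosa liver, and the one chosen in P. formosa at 0.0745% to 0.0947% in F1 hybrid liver.

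Genes counted in 1 organ only were almost all ovary genes. At 1 CPM or more in all 8 libraries of an organ and at most 3 counts over the 8 libraries of the other, 255 genes were found in ovary and 8 in liver, a description with no test. With no count at all in the other organ these were 62 and 3. Depth bounds this reading, since 3 counts in a library correspond to 0.0648 to 0.0727 plain CPM. The rule uses plain CPM and counts, without TMM factors, and most genes were sampled less deeply in liver. On the TMM scale the limit of 3 counts is looser in liver than in ovary, and 1 CPM is easier to reach in ovary. The excess of ovary genes is therefore in part set by the rule. The 255 ovary genes summed to 925.1 ± 14.8 CPM in the ovaries of P. formosa and 1119 ± 41.0 CPM in those of the F1 hybrid. The 8 liver genes summed to 188.0 ± 66.2 CPM in the livers of P. formosa and 93.2 ± 12.6 CPM in those of the F1 hybrid. In brain of the same fish, 73 of the 255 ovary genes reached a mean of 1 CPM, and 0 of the 8 liver genes did.

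The ovary set was also taken within each genotype. It held 532 genes in P. formosa and 1125 in the F1 hybrid, and 309 were in both, which is more than the 255 found over all fish because the limit of 3 counts then covers 4 livers. Without P. formosa 4 and 12 the P. formosa set held 1267 genes, with the limit of 3 counts over 2 livers only. Fish by fish, genes at 1 CPM or more in ovary with no count in the liver of the same fish numbered 1276, 637, 945 and 715 in P. formosa 3, 4, 11 and 12. They numbered 1532, 1587, 1869 and 1439 in F1 hybrids 4, 10, 12 and 13. Every P. formosa fish thus had fewer than every F1 hybrid, and P. formosa 4 and 12 had fewest. Liver TMM factors averaged 0.444 in the F1 hybrid and 0.543 in P. formosa, with overlap, and the ovary counts are not corrected for them. The liver set held 25 and 18 genes, with 11 in both. The 1125 genes chosen in the F1 hybrid summed to 43.1, 104.7, 184.5 and 173.2 CPM in the livers of P. formosa 3, 4, 11 and 12, with a mean of 126.4 ± 65.8. The 532 chosen in P. formosa summed to 6.69 ± 1.81 CPM in the F1 hybrid livers. Choice within 1 genotype fixes a low level there, so only readings in the other genotype are given.

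Level and organ went together. Genes were grouped by their mean scaled CPM over the 4 groups of organ and genotype, without correction for gene length. Of the 1355 genes at 100 scaled CPM or more, 71.6% were higher in liver in both genotypes and 15.4% higher in ovary. Of the 5371 genes under 1 scaled CPM, 10.0% were higher in liver and 35.2% higher in ovary. A mean over organs is high for any gene that fills the liver libraries. The share of genes with a different organ difference between genotypes was 10.0% under 1 scaled CPM, 35.4% at 20 to 100 and 25.5% at 100 or more. The share shown to be alike within 2-fold was 0.391%, 35.8% and 31.4% in the same groups, so both kinds of result were scarce where counts were low.

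**Figure D5:**
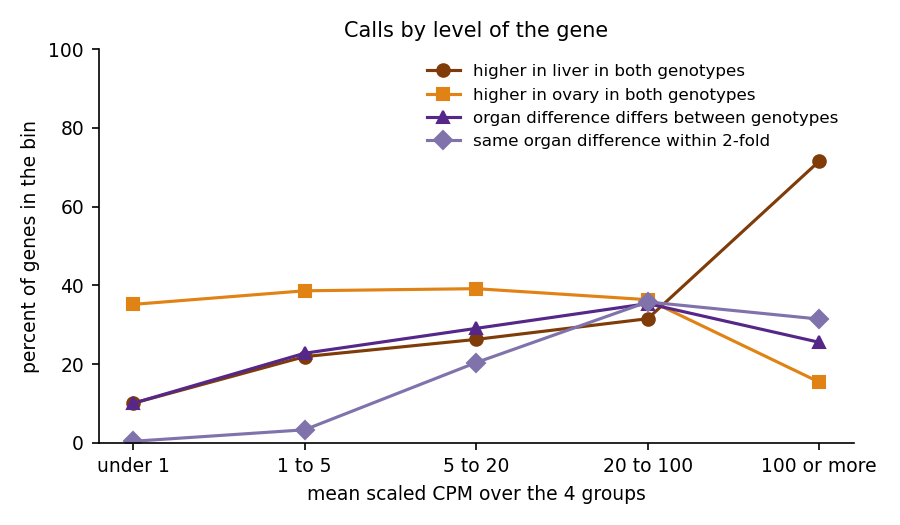
Percent of genes called higher in liver in both genotypes, higher in ovary in both, different in organ difference between genotypes, or alike within 2-fold by interval, for 5 groups of genes by mean scaled CPM (x axis). Genes higher in liver in both genotypes make up 10.0% of the lowest group and 71.6% of the highest.

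Brain of the same 8 fish placed the shared genes in another organ, on a scale set over all 3 organs. The 3159 liver genes at least 4-fold in each genotype took up 82.3% ± 1.78 of P. formosa liver counts and 81.7% ± 0.733 of F1 hybrid liver counts, against 6.54% ± 0.816 and 7.19% ± 0.713 in ovary. Brain lay over 4-fold under liver for 51.3% ± 6.34 of them in P. formosa and 54.6% ± 1.39 in the F1 hybrid, and above liver for 20.8% ± 1.62 and 20.3% ± 2.05. The 5346 ovary genes took up 33.9% ± 0.745 and 32.3% ± 1.70 of ovary counts, and 0.588% ± 0.0925 and 0.374% ± 0.0242 of liver counts. Brain lay over 4-fold under ovary for 48.8% ± 0.622 and 47.8% ± 1.18 of them, and above ovary for 30.2% ± 1.85 and 32.5% ± 0.834. A part of each list was higher in brain than in the organ that named it. Each list was chosen for a high level in these same liver or ovary libraries, which favours a lower level in brain. No share over all genes tested is given for comparison.

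Some genes were shown to be even between the organs in both genotypes. For 595 genes the organ difference was not called over both genotypes, and the intervals of the organ difference and of its difference between genotypes both lay within 2-fold. They took up 1.08% ± 0.112 of P. formosa liver counts and 0.960% ± 0.0598 of F1 hybrid liver counts, and 4.11% ± 0.0528 and 4.15% ± 0.0597 of ovary counts. Their lower share in liver follows from the choice, because genes even after TMM scaling hold fewer plain counts where the factor is low. Their median level was 23.6 scaled CPM against 7.19 for all genes tested. Intervals within 2-fold were scarce where counts were low, so the choice also favours higher levels.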

How the data were processed

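The authors deposited 1 table of raw counts per gene for 28 libraries, with no normalization, per the file's values and header. TopHat2, which aligns RNA reads across introns, and featureCounts, a read counter, were used per the submitters' processing notes. The build and annotation are not given in the sources used here. Libraries were made from DNase-treated RNA with a TruSeq mRNA protocol, per the labels. Columns were matched to samples by name, with 0 columns of per-sample values left unused.

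The members, the gene lists and the tests were chosen with earlier results of these data known. On the 16 libraries, edgeR 4.0.16 in R 4.3.3 was run with filterByExpr, TMM scaling and robust quasi-likelihood tests, Benjamini-Hochberg adjusted over 23022 genes at 0.05. Models held fish and organ (over both genotypes, or in each alone), or fish, organ and organ by genotype. The fish block rests on the labels, since liver and ovary share an animal; deviations of both organs of a fish had a median correlation of 0.04 (-0.01 to 0.13) across genes. Intervals are 95%. Fish-wise differences used log2 CPM with a prior count of 2. All 24 pairs of libraries within a group differed beyond sampling noise (lowest chi-square per degree of freedom 13.1). Organ classes and within-genotype sets were chosen in 1 genotype and read in the other.

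The files pair no IDs with names, so 2 genes per direction were named by ID: those with the highest mean level among genes called the same way and at least 4-fold in each genotype, and those with the largest difference between genotypes among called genes with no overlap of fish and a mean of at least 5 scaled CPM in a group. The full naming rule takes 8 genes per direction by level and 4 by size (at least 50 scaled CPM). Folds against a group at 0 are set against 3 counts over that group and cover counting error only. Alternatives were DESeq2 1.42.0 and its size factors, limma 3.58.1 with voom, upper-quartile factors, no filter, no fish block, each fish left out, the first library series and stricter thresholds. Chosen after seeing the data were library totals without a factor, an organ by series term, a class fold of 4, leaving out P. formosa 4 and 12, and counting genes of 1 organ fish by fish. The scripts were tested on simulated data with 100 genes changed by each size, far fewer than were called in the data. Over both genotypes 13% of log2 differences of 1 and 65% of those of 2 were recovered. Between genotypes 3% and 46% were recovered. False calls were 1.27% of calls over both genotypes and 9.26% between genotypes. Figures were drawn with matplotlib 3.10.9.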

Additional observations from a re-analysis of the deposited data

Results flagged for a closer look

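Of 60 groups of 4 fish checked, 5 held a fish far from the other 3, and chance gives about 5%. Gene 103154618 stood at 8.14 scaled CPM in the ovary of P. formosa 4. Gene 103132983 stood at 2260 scaled CPM in the ovary of P. formosa 3. Gene 103131645 stood at 0.102 scaled CPM in the ovary of P. formosa 12, which rests on 9 counts. The most counted gene held 19.8% of the liver counts of F1 hybrid 12. The ovary class chosen in P. formosa held 0.0947% of the liver counts of F1 hybrid 12.

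The genotypes differed in the organ difference, by the organ by genotype term of edgeR's quasi-likelihood test, for 5679 genes. Of these, 259 were called higher in liver in P. formosa and in ovary in the F1 hybrid, and 192 the other way round. Among the named genes the fitted difference was 11.00 for gene 103139616 and 10.99 for gene 103131564, more positive in P. formosa, and -11.49 for gene 103132985 and -9.74 for gene 103131645, all on the log2 scale. Each of the 4 has a group with no count, so the fitted values depend on the prior count and the bounds given with each gene stand in their place.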

How the results depend on the processing

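Of 363 recomputed counts and medians, 312 stayed within 1.5 times the reported count or within the spread between fish, 51 moved and 0 reversed; of 140 single-gene values 137 kept their call and 3, all of gene 103131564, lost it (adjusted p = 0.0811 in the first library series, 0.0794 with an organ by series term and 0.0542 without P. formosa 4 and 12). Library totals without a factor gave 2728 genes higher in liver and 17167 in ovary over both genotypes, 3457 and 16559 in P. formosa, and 2248 and 17220 in the F1 hybrid. They gave 1958 shared liver and 15590 shared ovary genes, 58 opposite genes higher in ovary in P. formosa, 2133 called in P. formosa only and 1444 with a more negative difference in P. formosa. Class medians in the other genotype were then -5.28 (ovary, chosen in the F1 hybrid), -6.69 (ovary, chosen in P. formosa), 6.27 and 6.02 (liver, in that order). A class fold of 4 gave -3.59, -4.68, 3.65 and 2.95. For the ovary class chosen in P. formosa DESeq2 gave -6.06 and limma voom -5.79.

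With each fish left out in turn, the genes more positive in P. formosa numbered 1891 to 2978 and the more negative 1491 to 2324, and the opposite genes higher in ovary in P. formosa 125 to 220. Contrasts smaller in P. formosa numbered 886 to 1684 and larger 582 to 933 (662 without F1 hybrid 4 and 597 without F1 hybrid 13). Without P. formosa 4 and 12 there were 1174 more positive, 695 more negative and 1883 within 2-fold. There were also 88 opposite genes higher in ovary in P. formosa, 2589 called in P. formosa only, 3927 in the F1 hybrid only, 360 contrasts smaller and 300 larger in P. formosa, and a median of -5.40 for the ovary class chosen in the F1 hybrid. Fewer fish weaken these tests; the cause of the remaining shift was not tested. Without the fish block, contrasts smaller in P. formosa numbered 2635, and no other count moved by over 1.5 times. A bound of 1.5-fold left 651 genes within it. Opposite genes higher in ovary in P. formosa numbered 44 at 2-fold in each genotype and 54 at an adjusted p under 0.01, where those higher in liver numbered 87. Genes in 1 organ only numbered 3 in liver and 62 in ovary with no count in the other organ, and 5 and 19 at 5 CPM. Low counts limit the test between genotypes, and 1 clone and 1 brood limit what it stands for.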
